A study of Microtus ochrogaster with 34 samples.

Results

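In the testis of the fossorial water vole *Arvicola terrestris scherman* (*ATS*), a group of 60 genes had a lower mean level in winter, in the deposited scaling, whether or not the males still made sperm. The 60 are of 23038 genes in the table, and of 12885 genes whose mean in summer testes was at least 2 RPKM (reads per kilobase of exon, scaled for library depth). They were chosen by their group means: summer at least 2-fold above both kinds of winter testis, less than 16-fold above the testes without spermatogenesis, and a ratio between the winter groups from 0.67 to 1.5. The 3 ratios between groups therefore describe how the genes were picked. The list depends on the scaling and on single libraries. Of the 60, 7 met these limits with RPKM rescaled to total reads, and 19 under every removal of 1 library. Fitted differences and calls from these contrasts are given below as description only, and are no test of the members. The choice set no limit on how single males fell within each group, how widely the genes varied, or how long and well covered they are. Separation and spread are still measured on the values behind those group means, so they are not independent of the choice.

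Testis RNA from 34 wild-type, wild-caught males was sequenced after poly-A selection, 1 library each. The 18 summer (S) males were trapped in July and August. Of the males trapped in January and February, 5 maintained spermatogenesis (W+) and 11 did not (W-), as judged on sections. The W- group joins males with empty seminiferous tubules and males with an intermediate picture, so it is not uniform by construction. All were adults by weight, were brought to the animal facility on the day of capture, and had the other testis fixed for histology. Season goes with trapping months, temperature, food and day length together. The paper also reports that winter males of both kinds differed from summer males in body weight and fur length. These cannot be told apart in this design.

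Seasonal breeders shut down and restore the testis with the time of year. Regression removes first the late germ cells, spermatids and spermatocytes, and leaves Sertoli cells, which line the tubules and nurse the germ cells, Leydig cells, which make testosterone, and spermatogonia. A gene read mainly in germ cells therefore tends to fall with regression. The paper describes spermatogenesis in W+ males as active but below the summer level, with germ cell development terms lower in W+ than in S testes. A germ cell gene can thus also be lower in W+ than in S, and which cells the members are read in was not tested. In bulk tissue, fewer cells of a type and less RNA per cell cannot be told apart.

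The files identify genes by Ensembl prairie vole identifiers, and none of them could be paired with a gene symbol here. The members are therefore numbered by falling S mean, and only 2 are given by identifier: member 1, ENSMOCG00000020047, with the highest S mean, and member 40, ENSMOCG00000005109, with the largest ratio of summer to winter among members of at least 5 RPKM. For the same reason the testis label could not be checked against cell type markers, no role can be given for a member, and lists of germ cell, Sertoli, Leydig or immune genes could not be applied.

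The class is rare among genes that are higher in summer. Of the 12885 genes, 3232 were from 2-fold to under 16-fold higher in S than in W- testes. In 395 of these 3232, the S mean was also at least 2-fold above the W+ mean, and in 159 of the 3232 the W+ to W- ratio lay from 0.67 to 1.5. Only the 60 members met both limits. A W+ mean can be placed between the other groups, at 0 when it equals the W- mean and at 1 when it equals the S mean. On this scale the other 3172 moderately summer-high genes had a median of 0.629, so that for most of these genes the W+ mean was nearer to summer. The other 335 genes that were at least 2-fold below summer in W+ had a median of 0.333, and the 60 members lay from -0.160 to 0.24 with a median of 0.103.

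**Figure D1:**
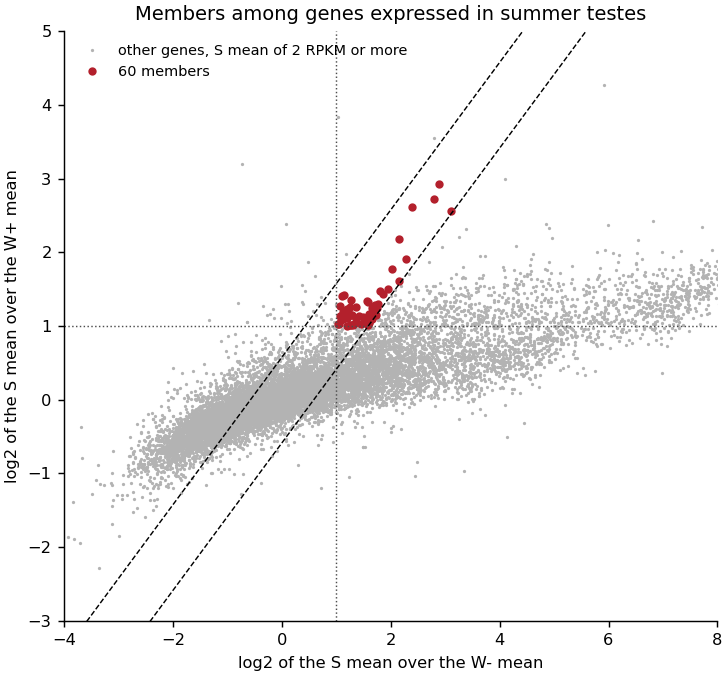
Each point is 1 of the genes with an S mean of at least 2 RPKM, with the log2 of the S mean over the W- mean on the horizontal axis and the log2 of the S mean over the W+ mean on the vertical axis; dotted lines mark 2-fold, and dashed lines enclose W+ to W- ratios from 0.67 to 1.5. The 60 members (red) sit where the upper edge of the main cloud enters the band, 44 of them with an S to W+ ratio under 2.5, and a small number lie far up along the band.

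Within the rule, most members were modest differences. The S to W- ratio had a median of 2.87 (quartiles 2.34 and 3.25, highest 8.61), and the S to W+ ratio a median of 2.22 (quartiles 2.12 and 2.52, highest 7.61). In 52 members the S to W- ratio was under 4, and in 44 the S to W+ ratio was under 2.5. Only 5 members were at least 4-fold above W+. The W+ mean was above the W- mean in 47 of the 60 members, with a median ratio of 1.20, and 23 members had a ratio from 1.3 up to the limit of 1.5. In the deposited scaling the W+ means were thus more often slightly on the summer side. That order turned with RPKM rescaled to total reads, where the median ratio was 0.931.

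The nearest values on either side of each limit, and the number of genes at any distance that failed by that limit alone, were as follows. The lowest S mean of a member was 2.02 RPKM, the highest one just outside was 1.998 RPKM, and 137 genes failed by that minimum alone. The smallest S to W+ ratio was 2.009 inside and the largest outside was 1.989, with 99 genes failing only there. For the S to W- ratio the values were 2.04 and 1.99, with 12 such genes, and no gene failed only by being 16-fold or more higher. At the upper limit on the W+ to W- ratio the nearest values were 1.499 inside and 1.505 outside. There 332 genes failed by it alone, most of them far from it, since the other 335 genes at least 2-fold below summer in W+ had a median ratio of 3.30 with a lower quartile of 2.32. On the lower side the nearest values were 0.814 inside and 0.589 outside, with 3 genes failing there only, so the members filled only the part of the band above 0.81.

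By abundance the members fell into equal portions: 20 had an S mean of at least 20 RPKM, 20 lay from 5 to 20 RPKM and 20 were under 5 RPKM. Added together, the members' mean levels came to 1845 RPKM in S, 828 RPKM in W+ and 698 RPKM in W- testes. As a share of all reads counted on genes, which does not use the scaling of the RPKM, they took 0.280% ± 0.0172 (SD, n = 18, range 0.243 to 0.307) in S, 0.160% ± 0.0189 (n = 5, range 0.135 to 0.187) in W+ and 0.172% ± 0.0134 (n = 11, range 0.154 to 0.200) in W-. The lowest S library was above the highest winter library on this measure, and the winter groups overlapped. On this base the difference between seasons was smaller than in RPKM.

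**Figure D2:**
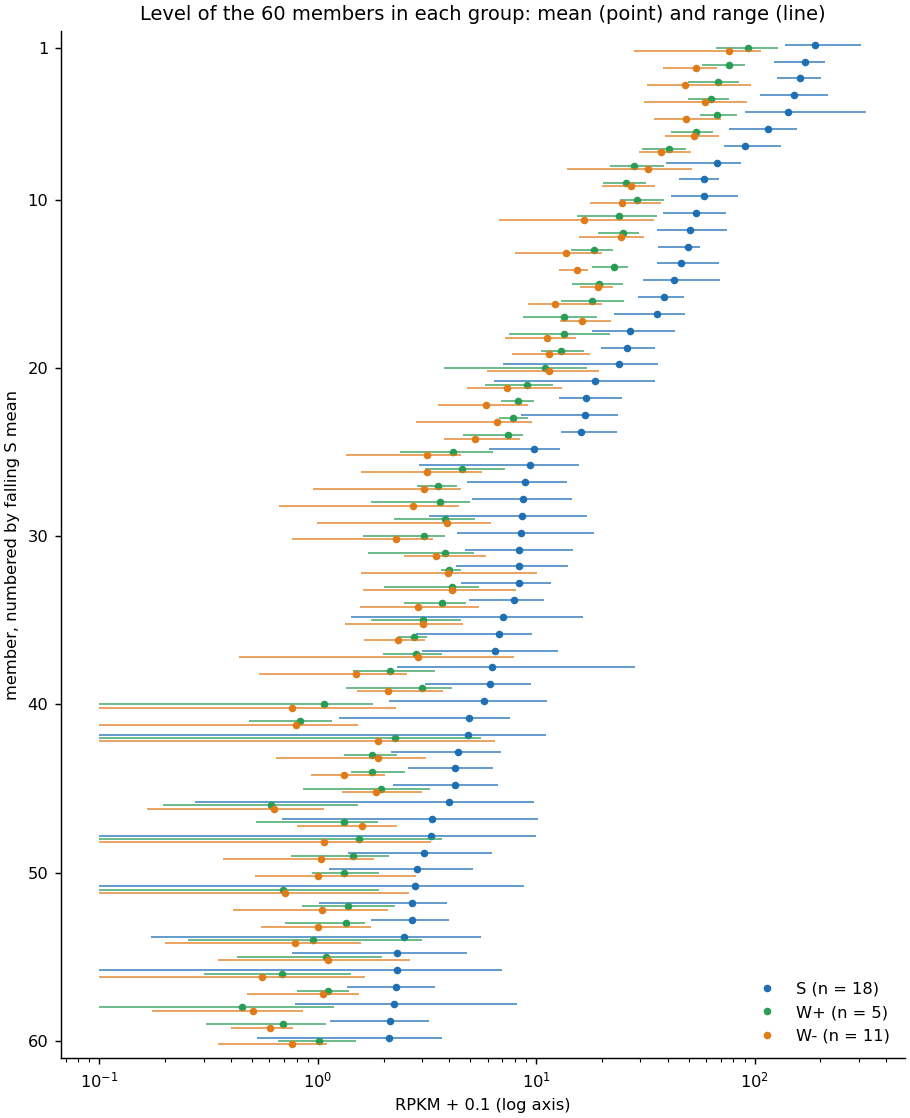
Level of each of the 60 members, numbered by falling S mean from top to bottom, as RPKM + 0.1 on a log axis; points are group means and lines run from the lowest to the highest library of the 18 S (blue), 5 W+ (green) and 11 W- (orange) males. In the upper rows the blue lines stand clear of the winter lines in 17 of the 20 members of at least 20 RPKM, and towards the bottom they overlap, with only 2 of the lowest 20 clear. Shares of other genes at like levels were not counted.

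The highest 7 members were separate from winter in every male. Member 1, with an exon length of 1162 bp, ran from 137 to 307 RPKM in S males with a median of 171 RPKM. In W- males it ran from 27.9 to 106 RPKM with a median of 82.5 RPKM, and in W+ males 1 to 5 it was at 94.1, 94.3, 82.6, 128 and 66.8 RPKM. The lowest S male was thus above the highest winter male, by a narrow margin over W+ male 4. In limma on log2(RPKM + 0.1), member 1 was 1.36 higher in S than in W- (SE 0.15) and 1.02 lower in W+ than in S (SE 0.20), the latter close to the 2-fold limit.

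Members 2 and 3 were tighter among S males, at 123 to 210.0 RPKM (median 166) and 127 to 201 RPKM (median 160.3). Member 2 lay from 37.8 to 67.2 RPKM in W- males (median 56.4), and at 57.1, 61.1, 86.6, 88.2 and 89.95 RPKM in the 5 W+ males. Here W+ males 3, 4 and 5 were above every W- male and W+ males 1 and 2 were not. In member 3 males 1 and 2 were again the lowest W+ animals, at 49.3, 53.8, 84.6, 72.2 and 80.4 RPKM, while its W- males ran from 32.2 to 96.4 RPKM (median 38.5). The fitted log2 differences from S were 1.66 for member 2 (SE 0.10) and 1.81 for member 3 (SE 0.12) against W-, and -1.16 (SE 0.13) and -1.26 (SE 0.16) for W+ against S.

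Member 4 had the closest W+ and W- levels of the leading 5. It was at 106 to 218 RPKM in S males (median 149.9), at 30.9 to 92.6 RPKM in W- males (median 56.9) and at 65.5, 49.4, 76.2, 56.1 and 69.4 RPKM in W+ males. All W+ males fell inside the W- range and below the lowest S male. Its log2 difference was 1.42 for S against W- (SE 0.14) and -1.25 for W+ against S (SE 0.18).

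Member 5 showed the widest S range among the leading members, from 90.3 to 324 RPKM with a median of 126 RPKM. The top value belonged to S male 18, which also held the highest level of member 1. Its next S value was 191 RPKM, in S male 1. The winter males were at 34.4 to 69.9 RPKM in W- (median 46.9) and at 68.2, 56.3, 82.8, 71.5 and 57.4 RPKM in W+, still below every S male.

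Members 6 and 7 resembled member 4 in that winter testes with and without spermatogenesis were almost level. Member 6 averaged 115 ± 19.6 RPKM in S (SD, n = 18), 54.0 ± 8.75 RPKM in W+ (n = 5) and 52.8 ± 8.18 RPKM in W- (n = 11). Member 7 averaged 90.1 ± 18.2 RPKM in S, 40.6 ± 8.63 RPKM in W+ and 37.2 ± 7.07 RPKM in W-. The winter means of both genes lay within 1 SD of each other, and their S males, from 76.5 RPKM upwards for member 6 and from 72.2 RPKM for member 7, were above all winter males.

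Among the next members, 9, 13 and 16 were the steadiest in summer. Member 9 ran from only 45.1 to 68.5 RPKM over the 18 S males (median 58.5), against 19.9 to 34.8 RPKM in W- (median 28.1) and 24.96, 20.1, 31.7, 24.6 and 27.2 RPKM in W+. Member 13 ran from 35.9 to 56.0 RPKM in S (median 49.3), from 7.93 to 19.8 RPKM in W- (median 12.8) and was at 15.9, 14.4, 21.4, 22.4 and 17.4 RPKM in W+. Each of the 16 winter males was below 0.5 times the S mean of member 13, with log2 differences of 1.88 against W- (SE 0.11) and -1.43 for W+ against S (SE 0.14). Member 16 was at 29.2 to 47.3 RPKM in S (median 38.7) and 12.1 ± 3.2 RPKM in W- (SD, n = 11), while W+ males stood at 14.3, 12.9, 25.1, 15.7 and 21.3 RPKM.

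Member 10 completed the leading 10, with 58.4 ± 10.7 RPKM in S (n = 18), 28.9 ± 5.84 RPKM in W+ (n = 5) and 24.7 ± 5.92 RPKM in W- (n = 11). Its highest winter values, 38.4 RPKM in W+ male 3 and 37.3 RPKM in a W- male, were just under the lowest S value of 41.4 RPKM.

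The W+ males did not contribute evenly. Over the 60 members, the median log2 distance from the S mean was -1.49, -1.39, -0.86, -1.05 and -1.10 in W+ males 1 to 5, where -1 is 2-fold lower. The 11 W- males lay from -1.59 to -1.23, and the 18 S males from -0.33 to 0.17. In the deposited scaling, W+ males 1 and 2 were thus at the level of the W- testes and males 3, 4 and 5 were between them and summer. As a share of counted reads the 60 members took 0.156%, 0.135%, 0.187%, 0.165% and 0.155% in W+ males 1 to 5, so that males 3, 4 and 5 were inside the W- range of 0.154% to 0.200% and male 1 was level with male 5. In counts of genes, 57, 52, 23, 38 and 38 members were under 0.5 times their S mean in W+ males 1 to 5, against 39 to 54 members in the W- males and 1 to 13 in the S males.

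In the deposited RPKM the W+ males also differed gene by gene. W+ male 1 held the single lowest W+ value in 23 members and male 2 in 18, and male 3 held the highest in 32 and male 4 in 15. In W+ males 3, 4 and 5, 19, 15 and 9 members were above the highest W- male, compared with 2 and 3 members in W+ males 1 and 2. Shares over all genes were not counted per male, so whether this order is particular to the members is not known. No member was above its S mean in W+ males 1, 2 and 3. Because the rule takes the mean of 5 W+ males, 1 of them can move the list: without W+ male 1, 39 genes met it, of which 37 were among the 60, and without W+ male 3, 90 genes met it, including 53 of the 60.

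**Figure D3:**
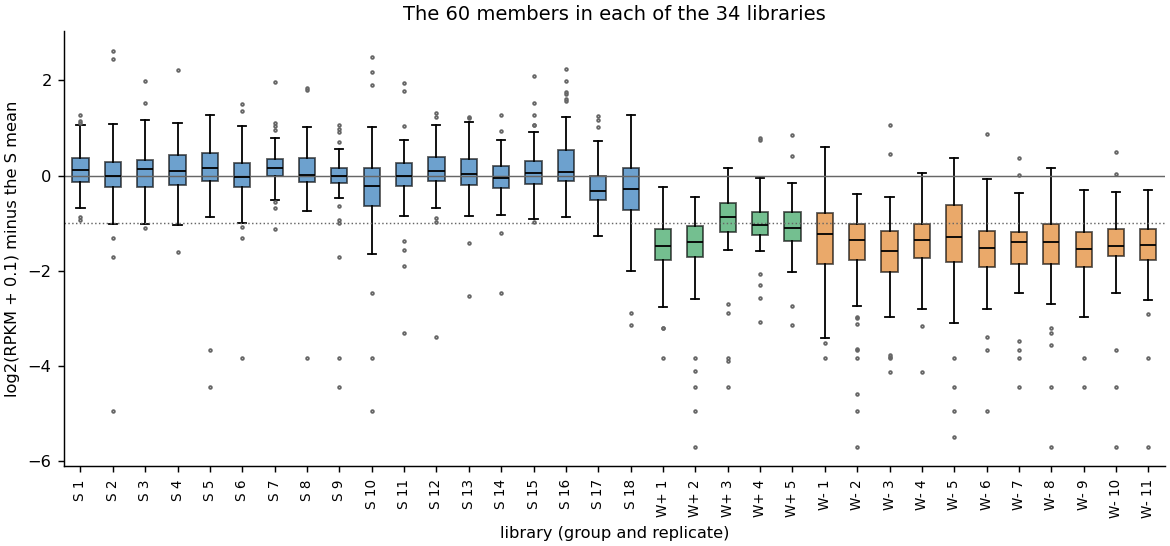
Distribution of the 60 members in each of the 34 libraries as log2(RPKM + 0.1) minus the mean over S males; boxes span the quartiles with the median as a line, whiskers reach 1.5 interquartile ranges, and dots are members beyond. The medians of S males (blue) stay between -0.33 and 0.17, W+ males 1 and 2 (green) sit with the W- males (orange) near -1.4, and W+ males 3 to 5 sit between -0.86 and -1.10.

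Beyond the means, 24 of the 60 members had every S male above every winter male of either group, compared with 4.96% of the 19185 genes tested. Of the other 3172 moderately summer-high genes 13.2% did so, and of the other 335 genes at least 2-fold below summer in W+ it was 48.4%. Among the members this separation went with level: 17 of the 20 members of at least 20 RPKM were separate, 5 of the 20 between 5 and 20 RPKM, and 2 of the 20 under 5 RPKM. Shares of other genes at these levels were not counted, so nothing particular to the members is read from this. Against single groups, every S male was above every W+ male in 29 members (5.23% of all genes) and above every W- male in 26 (23.0% of all genes). The latter share, 43.3% of the members, was below the 83.3% of the other moderately summer-high genes and the 83.3% of the other genes at least 2-fold below summer in W+. The W+ males were above all W- males in only 1 member, member 14, compared with 19.8% of all genes. All of these measures come from the contrasts that chose the members and are given as description.

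Member 14 stood at 17.8, 21.6, 24.3, 26.3 and 23.1 RPKM in W+ males and at 12.6 to 17.2 RPKM in W- males (median 16.2). The S males, at 35.7 to 68.3 RPKM (median 44.7), were above both. With a W+ to W- ratio of 1.48 it lay near the upper limit, and its W- males were among the most uniform of all members, the highest only 1.36 times the lowest.

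With limma over all 34 libraries, calls at an adjusted p under 0.05 (Benjamini-Hochberg over 19185 genes) and a log2 difference beyond 1 were made for 59 members as higher in S than in W-, where 28.7% of all genes and 99.1% of the other moderately summer-high genes were called that way. In W+ against S, 47 members were called lower, compared with 7.04% of all genes and 89.3% of the other genes at least 2-fold below summer in W+. In W+ against W-, none of the 60 was called in either direction, where 37.3% of all genes were, and 10 members had an unadjusted p under 0.05. The rule fixed these outcomes to a large part, since it required at least 2-fold between summer and winter and at most 1.5-fold between the winter groups while a call needs 2-fold, and nothing about the members is read from the counts. A member without a call in W+ against S still had a W+ mean at most 0.5 times the S mean by the rule, as in member 35 with a log2 difference of -0.98 (SE 0.43).

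The scaling of the RPKM bears on membership directly. The deposited values were scaled by the median ratio over genes, and rescaling them to equal total reads moved all genes upwards in winter relative to summer. The shift comes from a single factor per library, applied to every gene alike. On the log2 scale its group mean differed from summer by 0.35 in W+ and 0.71 in W-. All 60 members kept an S mean above both winter means under that scaling, with median ratios of 1.75 over W- and 1.76 over W+ and a median W+ to W- ratio of 0.931. Only 7 of the 60 still met the rule, since 45 had an S to W- ratio under 2 and 46 an S to W+ ratio under 2. Over all genes the balance of calls in W+ against S turned under total scaling. As deposited, 229 were called higher and 1350 lower in W+ than in S, against 939 and 591 under total scaling. Under quantile normalisation the balance kept its direction, at 329 higher and 940 lower. For S against W- the counts were 5515 higher and 4375 lower as deposited, 3927 and 7399 under total scaling, and 4373 and 6332 under quantile normalisation. For the members the direction of the means held under the deposited and the total scaling, and the size of the difference did not.

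The largest relative differences were in members of low abundance. Member 40, with an exon length of 237 bp, ran from 2.01 to 11.1 RPKM in S males (median 5.00), from 0 to 2.17 RPKM in W- males (median 0.393) and was at 0.796, 0, 0.702, 1.62 and 1.70 RPKM in W+ males. Of the 16 winter males, 14 were below the lowest S value, the W+ males all among them. These levels rest on few reads, 266 over the 18 S libraries, 16 over the 11 W- libraries and 8 over the 5 W+ libraries. Its log2 differences were 3.64 for S against W- (SE 0.47) and -2.81 for W+ against S (SE 0.62), and without W+ male 2, the one without a read, the latter was -2.09.

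Member 41 gave a similar picture on a longer gene of 976 bp. It was at 1.15 to 7.52 RPKM in S males (median 5.05), at 0 to 1.42 RPKM in W- males (median 0.629) and at 0.387, 1.07, 0.511, 0.656 and 1.03 RPKM in W+ males. The counts behind it were 1126, 74 and 24 reads in S, W- and W+, and the ratios of 6.95 over W- and 6.63 over W+ were almost equal. Members 13 and 41 were the only 2 that met the rule under every removal of a single library, under group medians, under quantile normalisation and under scaling by total reads. Member 41 was picked after its values were seen, as were members 11, 14, 33, 37, 42, 46, 48, 51, 54 and 59.

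Member 59 was at 1.03 to 3.14 RPKM in S males (median 1.90), 0.302 to 0.671 RPKM in W- males (median 0.478) and 0.726, 0.381, 0.683, 0.986 and 0.206 RPKM in W+ males. The lowest S male was above all 16 winter males, by a small distance from W+ male 4, and among the members under 5 RPKM only 2 separated in this way.

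In the middle range, members 25, 27, 28, 30 and 36 were among the 10 with the largest ratio of summer to winter at an S mean of at least 5 RPKM. Member 30 ran from 4.22 to 18.4 RPKM in S males (median 7.74), from 0.659 to 3.26 RPKM in W- males (median 2.40) and was at 1.5, 3.10, 3.01, 3.73 and 3.42 RPKM in W+ males. No winter male reached 0.5 times the S mean of this member or of member 36, which averaged 6.65 ± 1.84 RPKM in S (n = 18), 2.65 ± 0.318 RPKM in W+ (n = 5) and 2.22 ± 0.463 RPKM in W- (n = 11). Member 27 averaged 8.80 ± 2.43 RPKM in S, 3.46 ± 0.535 RPKM in W+ and 2.98 ± 1.10 RPKM in W-, with every S male above every winter male. Member 25 did not separate in full, since W+ male 5 at 6.22 RPKM was above the lowest S male at 6.00 RPKM.

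S males varied more in the members than in other genes of the same class of S mean. The top class has no upper limit, with members up to 189 RPKM and all genes up to 16281 RPKM, so levels there are not matched. The coefficient of variation left after counting error had a median of 0.180 in the 20 members of at least 20 RPKM, 0.287 in the 20 between 5 and 20 RPKM and 0.404 in the 20 under 5 RPKM. All other genes of the same S mean classes had medians of 0.130, 0.160 and 0.212, and the other moderately summer-high genes 0.131, 0.197 and 0.292. Among W+ males the members were slightly above all other genes at the upper and middle levels, with medians of 0.208 against 0.192 and 0.207 against 0.199, and further above them under 5 RPKM, 0.377 against 0.251. The other moderately summer-high genes had W+ medians of 0.213, 0.255 and 0.297, so the members were below these except under 5 RPKM. Among W- males the members were below all other genes at the upper level, 0.221 against 0.246, and above them at the lower levels, 0.339 against 0.245 and 0.444 against 0.304. The other moderately summer-high genes had W- medians of 0.243, 0.301 and 0.393. These medians are a description with no test, and they come from the same values as the means that chose the members.

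In some members a few S males stood at winter values. Member 46 was at 0.420, 0.175 and 0.227 RPKM in S males 10, 12 and 18, and at 1.59 to 9.68 RPKM in the other 15. Winter males were at 0.0654 to 0.969 RPKM in W- (median 0.477) and at 0.214, 0.591, 0.0946, 1.42 and 0.229 RPKM in W+, so that those 3 S males were inside the winter range. S male 12 is 1 of the 4 deepest libraries.

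Member 35 was low in another set of S males. It was at 1.64, 1.76, 1.81 and 1.32 RPKM in S males 2, 4, 11 and 18, and from 3.78 to 16.3 RPKM in the other 14. The W- males ran from 1.24 to 4.51 RPKM (median 3.31) and the W+ males were at 3.29, 2.81, 2.42, 4.41 and 1.66 RPKM, above those 4 S males except for W+ male 5. Member 54 was at 0.427, 0.0730, 0.210 and 0.131 RPKM in S males 9, 11, 14 and 18 and at 1.35 to 5.51 RPKM in the other 14. S male 18 was low in all 3 genes and S male 11 in members 35 and 54, and the remaining low males differed from gene to gene.

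In member 38, by contrast, 1 S male stood far above the rest. S male 10 was at 28.1 RPKM and the other 17 were at 2.20 to 10.2 RPKM, against 0.439 to 2.45 RPKM in W- males and 1.35, 1.77, 1.58, 2.14 and 3.35 RPKM in W+ males. The S median of 4.28 RPKM was still above all winter males. Member 21 also spread widely in S, from 6.29 to 34.8 RPKM with a median of 17.6 RPKM, over W- males at 4.74 to 13.0 RPKM and W+ males at 6.04, 11.6, 5.73, 9.67 and 11.9 RPKM. Member 29, of 473 bp, ran from 3.12 to 17.0 RPKM in S, 0.890 to 6.14 RPKM in W- and 2.12 to 5.15 RPKM in W+.

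Counted over all members, S males 17, 18 and 10 were the lowest summer animals, with median log2 distances of -0.33, -0.28 and -0.23. S male 18 had 13 members and S male 10 had 9 members under 0.5 times the S mean, although the former had the highest levels of members 1 and 5. The lowest S median of -0.33 was still above the highest winter median, -0.86 in W+ male 3.

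The W- males split in opposite directions in some members. Member 8 was at 47.0, 47.8, 43.3, 51.3 and 40.03 RPKM in W- males 1 to 5, at 13.8, 16.7, 15.0 and 17.4 RPKM in W- males 6, 7, 9 and 10, and at 32.6 and 31.1 RPKM in W- males 8 and 11. The first 5 were all above the lowest S male, since S ran from 39.3 to 86.2 RPKM (median 66.7). The W+ males, at 22.4, 21.7, 38.3, 32.1 and 25.6 RPKM, fell between the low and the high W- males and below every S male. The mean of W- used by the rule, 32.4 ± 14.5 RPKM (n = 11), was therefore near the level of only W- males 8 and 11.

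Member 37 had the opposite order. It was at 0.431, 0.605, 0.334, 0.882 and 1.75 RPKM in W- males 1 to 5 and at 5.68, 7.83, 4.58 and 6.13 RPKM in W- males 6, 7, 9 and 10, with 1.52 and 0.938 RPKM in males 8 and 11. The highest W- male was 23.5 times the lowest. W- males 6, 7, 9 and 10 were thus inside the S range of 2.91 to 12.4 RPKM (median 6.32), and W+ males were lower than these and more even, at 1.90, 2.67, 2.63, 2.76 and 3.61 RPKM. For this gene, 7 of the W- males were below every S male and the other 4 were at summer level.

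Further members went with one or the other. Members 3 and 11 were higher in W- males 1 to 5 than in the others, member 11 at 17.9 to 34.5 RPKM there and at 6.63 to 11.2 RPKM elsewhere. Member 33 was at 5.05 to 8.02 RPKM in W- males 6, 7, 9 and 10 and at 1.51 to 4.86 RPKM in the other 7. Member 28 was lowest in W- males 1 to 4, at 0.680, 0.563, 1.17 and 1.66 RPKM, and at 2.79 to 4.35 RPKM in the other 7. In all, 18 members had a highest W- value at least 4 times the lowest, leaving out those with a W- male at 0. The share of other genes with such a range was not counted, so it is not read as particular to the members. Some of the 18 rest on few reads, such as members 54 and 58, whose lowest W- library held 1 read. For members 3, 11, 28 and 33, as for members 8 and 37, the rule sets an average of unlike W- males beside the W+ males. Whether the wide W- range of the others among the 18 followed either division was not tested.

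**Figure D4:**
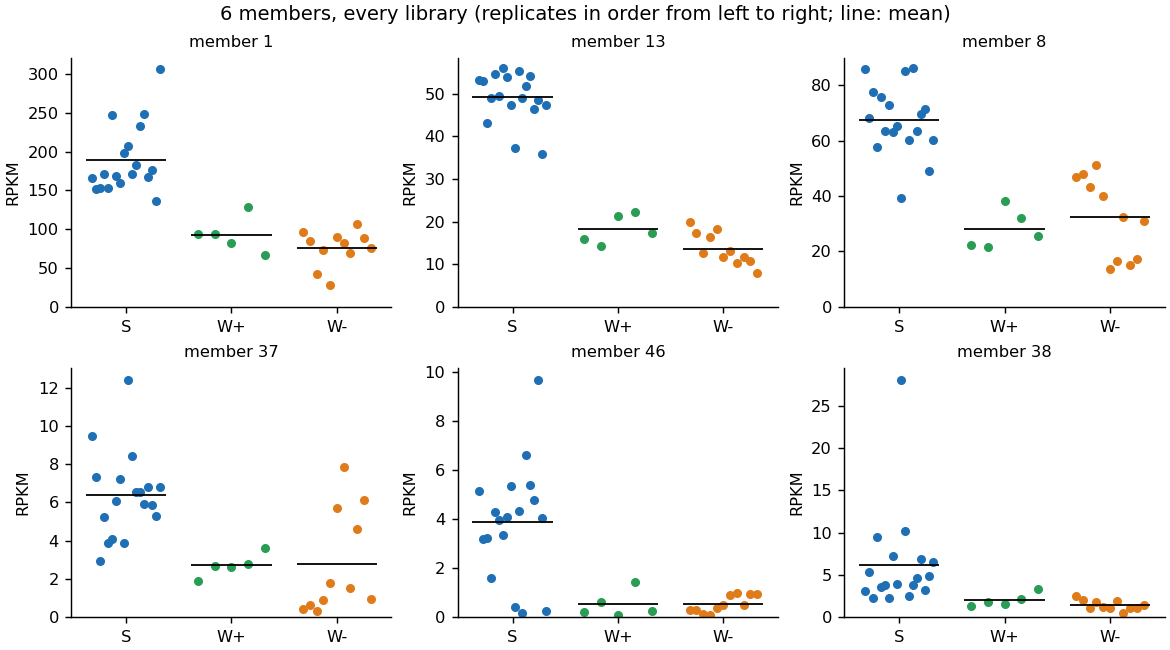
RPKM of members 1, 13, 8, 37, 46 and 38 in every library, with S in blue (18), W+ in green (5) and W- in orange (11), replicates in order from left to right within each group and a black line at the group mean. Members 1 and 13 show summer males clear of winter males; W- males divide high and low in member 8 and the other way round in member 37; 3 S males lie at winter level in member 46, and 1 S male at 28.1 RPKM stands above the rest in member 38.

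Exon length of the members was like that of other genes. It ran from 73 to 7083 bp with a median of 1901.5 bp, against medians of 1939 bp in the other moderately summer-high genes, 1851 bp in the other genes halved in W+ and 1823 bp in all 12885 genes. Of the 60, 8 were shorter than 500 bp and 3 shorter than 150 bp. Those 3, members 42, 48 and 51 at 73, 107 and 111 bp, had 78, 67 and 54 reads in all 18 S libraries together and at least 1 S library without a read. Their place among the members rests on means of few reads, and no winter male was below the lowest S male.

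Depth differed between libraries. Counted reads ran from 5534633 to 63857259 in S (median 7504568.5), from 4960104 to 8576453 in W+ and from 2938627 to 9653984 in W-. S males 12 to 15 were the deepest and W- male 5 the shallowest. Leaving out S males 12 to 15, 64 genes met the rule and 55 of the 60 were among them. In all 34 libraries, 17 members had at least 100 reads and 41 at least 10 reads, and 7 members had 0 reads in at least 1 library, 4 of them in an S library. A single read added 0.087 RPKM to a gene of median length at median depth, so that the smallest differences among the least abundant 20 members are of single reads.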

How the data were processed

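Testis RNA was read in 18 S, 5 W+ and 11 W- libraries, grouped by the labels. The authors trimmed reads (Trim Galore 0.6.10, FastQC 0.12.1), aligned them with HISAT2 to the prairie vole genome MicOch1, counted with HTSeq and deposited RPKM computed with DESeq2. The annotation release, strand setting and treatment of multiply mapped reads are not stated in the sources at hand. Whole reads came back from the RPKM of all 20821 genes above 0 (tolerance 0.02), with exon lengths for the members. These recovered reads served for depth, scaling, read numbers, shares of counted reads and the variation left after counting error. The group comparisons used RPKM, as the unit called for limma.

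Members and lists were chosen with earlier results of these data known. limma 3.58.1 (R 4.3.3, eBayes with trend) was fitted to log2(RPKM + 0.1) of 34 libraries, keeping 19185 genes of at least 0.1 RPKM in at least 5 libraries, and was tested on simulated data. Fold changes of low genes on that scale depend on the pseudocount, and need not match the ratio of group means. For member 40, with some W- libraries without a read, the log2 difference of S against W- was 3.64 at 0.1. It was 2.56 at a pseudocount of 0.5 and 2.03 at 1. Members were described by number: the 10 highest in S, the 10 with the largest ratio of S to the higher winter mean, and the 5 least and 5 most variable in S, the last 2 sets at an S mean of at least 5 RPKM. Others were picked after their values were seen. No sequence table matched, so the motif search and gene lists were not run. Labels number the libraries without naming animals, so errors measure the spread between libraries. Alternatives covered scaling, filter, pseudocount, fold, window, trend, block and each library left out.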

Additional observations from a re-analysis of the deposited data

Results flagged for a closer look

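The 25 W+ values and summaries tested for 1 library standing apart from the other 4 gave none past the limit. The nearest was member 30, where W+ male 1 was at 1.5 RPKM and the other 4 were at 3.01 to 3.73 RPKM, a gap of 0.679 of the whole range against a limit of 0.71. Chance flags about 1 group in 20 by this test.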

How the results depend on the processing

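The count of 60 genes meeting the rule became 17 with RPKM rescaled to total reads (7 of the 60 among them), 8 at 3-fold in place of 2-fold and 35 with the winter ratio held closer to 1, from 0.8 to its inverse. It was 56 with group medians (27 of the 60) and 55 with quantile normalisation (29 of the 60), so that under both fewer than 30 of the 60 were found. Leaving out 1 library at a time gave 39 (without W+ male 1) to 90 (without W+ male 3), and 19 of the 60 were found under each of the 34 removals. In S against W-, the 59 members called became 16 under total scaling and 35 under quantile normalisation, with 56 to 59 over single removals. Of all genes, 51.6% were called in either direction in the main fit, 59.0% under total scaling and 55.9% under quantile normalisation. In W+ against S, the 47 called became 26 with a pseudocount of 1, 8 under total scaling and 31 under quantile normalisation, with 35 (without W+ male 1) to 51 over single removals. Over all genes, the share called in that contrast was 8.23% in the main fit, and 5.26%, 7.98% and 6.62% under those settings in turn. It fell to 4.81% without W+ male 1. In W+ against W-, 0 members became 9 with no fold threshold, where 63.8% of all genes were called, and 0 to 1 over single removals. With the replicate number as a replicate block, 55, 47 and 1 members were called, beside 51.9%, 10.4% and 39.2% of all genes. The replicate numbers showed little sign of pairing the libraries. Same-numbered S and W- libraries correlated at -0.05 to 0.10 in their deviations, and none of 11 pairs passed 0.1. For S and W+ the range was -0.05 to 0.02 over 5 pairs. For W+ and W- it was -0.16 to 0.14, and 1 of 5 pairs passed 0.1. Members 1 and 40 kept their direction in S against W- and in W+ against S under all 44 alternatives, with the W+ to S call of member 1 lost in 10. The causes of these changes were not tested.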
